A study of Mus musculus with 10 samples.

Results

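The genes examined were the 79 of the 17404 in the deposited gene count table whose symbol begins with Mrpl or Mrps followed by a number, the naming pattern of mitochondrial ribosomal protein genes. The rule used the symbol alone. By the current assignment of the subunits, 51 encode proteins of the large subunit and 26 of the small subunit, Mrps36 encodes a protein now placed in the 2-oxoglutarate dehydrogenase complex, and Mrpl23-ps1 is a pseudogene copy of Mrpl23. They were compared in LT-HSCs (long-term blood stem cells, which renew themselves and give rise to every blood lineage) sorted from fetal livers at E14.5. KO embryos were Tnfrsf11aCre/+; Spi1f/f (n = 6) and WT embryos were Tnfrsf11a+/+; Spi1f/f (n = 4), so that both groups carried the floxed Spi1 alleles and only KO carried Cre. Cre was expressed from the Tnfrsf11a locus, which is active in macrophage precursors, and Spi1 encodes the myeloid transcription factor PU.1, so the deletion was directed at macrophages while the libraries were made from stem cells. The comparison asked how the stem cell transcriptome differed when fetal liver macrophages were depleted. All mice were on a C57BL/6 background, and the labels give no litter for the embryos, so the p-values measure the spread between these 10 libraries.

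The mitochondrial ribosome translates the few proteins that the mitochondrial genome still encodes, all of them components of oxidative phosphorylation. Its RNAs are transcribed inside the organelle, whereas all of its proteins are encoded in the nucleus, made in the cytosol and imported. Compared with its bacterial ancestor it has lost RNA and gained proteins, so that its subunits hold both proteins with a bacterial counterpart and proteins specific to mitochondria. Hematopoietic stem cells of the adult bone marrow are known for a largely glycolytic metabolism and for sensitivity to the loss of mitochondrial function. The metabolism of the fetal liver cells used here was not measured.

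On the normalized scale of the edgeR test, mRNA of these genes was lower in KO as a family. How far the libraries separated varied with the scale, as given below. By the quasi-likelihood test of edgeR, with p-values adjusted after Benjamini and Hochberg over 16725 genes, 29 of the 79 members were lower in KO at an adjusted p below 0.1, the threshold of the study, and 0 were higher. Among all genes tested, 2.67% were lower and 1.32% were higher by the same rule. The log2 fold change, KO against WT, was below 0 for 78 members against 46.9% of all genes, and the median was -0.73 for the members and 0.06 for all genes. At an unadjusted p below 0.05, 68 members were lower and 0 were higher, where 10.2% of all genes were lower. With the DESeq2 settings of the study, 33 members were lower against 3.86% of the genes given an adjusted p. The calls stood close to the threshold. Their adjusted p ran from 0.0824 to 0.0996, another 15 members lay between 0.1 and 0.12, and at an adjusted p below 0.05 no gene of the whole table was called in either direction.

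The members lay on 17 chromosomes. Start sites within 1000 bases of another protein-coding gene on the opposite strand, the head-to-head arrangement of shared promoters, were found for 33 of the 78 members with an annotation, against 13.2% of 15917 other protein-coding genes tested. Promoter sequences in RefSeq (GRCm38.p6, 250 bases before to 50 after the start) were found for 69 members, with 75 promoters among them. The motif CCGGAAG of ETS factors, searched on both strands, occurred in 34.7% of these 75 promoters, in 14.1% of the promoters of all genes tested and in 8.86% of all 32851 promoters. The YY1 core GATGGCG occurred in 10.7% against 5.15% and 3.49%, the NRF1 core GCATGCG in 10.7% against 5.40% and 3.58%, and the GC box GGGCGGG in 42.7% against 41.1% and 25.6%. In 1 member promoter matches of different motifs overlapped. Below are the promoters of the 3 members with the smallest p among those that were called, had KO and WT libraries that did not overlap and held an NRF1, ETS or YY1 motif, followed by that of Mrpl44, the only member with a log2 fold change above 0. Capitals mark these motifs or their reverse complements, ETS and then NRF1 for Mrpl22, YY1 for Mrpl35 and ETS for Mrps18c. Mrpl44 held none of the 3 as searched. Only the exact letters were searched, so other forms of a site were not counted or marked, such as GCACGCG in the Mrpl44 promoter beside the NRF1 core GCATGCG.
Mrpl22 promoter (chr11:58171414-58171713, plus strand): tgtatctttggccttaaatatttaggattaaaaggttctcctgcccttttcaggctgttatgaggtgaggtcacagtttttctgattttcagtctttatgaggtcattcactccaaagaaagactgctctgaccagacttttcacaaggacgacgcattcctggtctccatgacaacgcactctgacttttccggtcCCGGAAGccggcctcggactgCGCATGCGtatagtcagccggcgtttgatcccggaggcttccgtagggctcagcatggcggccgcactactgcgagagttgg
Mrpl35 promoter (chr6:71823735-71824034, minus strand): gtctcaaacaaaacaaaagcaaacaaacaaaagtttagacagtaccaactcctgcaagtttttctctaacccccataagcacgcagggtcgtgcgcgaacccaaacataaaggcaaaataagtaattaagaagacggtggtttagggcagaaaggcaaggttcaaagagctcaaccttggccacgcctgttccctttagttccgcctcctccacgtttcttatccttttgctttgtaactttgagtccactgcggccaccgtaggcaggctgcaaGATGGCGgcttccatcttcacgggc
Mrps18c promoter (chr5:100798509-100798808, plus strand): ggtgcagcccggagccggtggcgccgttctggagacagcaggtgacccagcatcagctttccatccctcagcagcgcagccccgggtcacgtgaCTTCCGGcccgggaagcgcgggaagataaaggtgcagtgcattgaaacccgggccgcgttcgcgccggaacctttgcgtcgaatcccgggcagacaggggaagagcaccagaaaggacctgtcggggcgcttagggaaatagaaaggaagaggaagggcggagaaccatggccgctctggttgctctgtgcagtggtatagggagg
Mrpl44 promoter (chr1:79775768-79776067, plus strand): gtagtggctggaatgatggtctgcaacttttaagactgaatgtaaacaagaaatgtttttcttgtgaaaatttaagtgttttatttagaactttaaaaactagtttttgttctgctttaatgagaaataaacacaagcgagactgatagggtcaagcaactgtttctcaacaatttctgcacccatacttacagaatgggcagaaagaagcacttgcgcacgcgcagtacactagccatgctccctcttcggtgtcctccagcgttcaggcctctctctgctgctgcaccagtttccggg
The 26 members with an ETS motif had a median log2 fold change of -0.73 with 9 called lower, and the 43 without one had a median of -0.74 with 18 called lower. The 8 members with a YY1 core had a median of -0.78 with 5 called, and the 61 without one -0.73 with 22 called. The 8 with the NRF1 core as searched had -0.67 with 2 called. The 61 without these exact letters, which may hold other forms of the site, had -0.76 with 25 called. The 29 with a GC box had -0.79 with 15 called, and the 40 without one -0.69 with 12 called. Of the head-to-head neighbours, 30 were tested and are not members themselves. Of these 30, with a median log2 fold change of 0.04, 14 (46.7%) were below 0, against 46.9% of all genes. Called lower were 5 (16.7%), against 2.67% of all genes. Called higher was 1 (3.33%), Klc4 beside Mrpl2, against 1.32% of all genes. Mrps11 and Mrpl46 are a pair in which both are members, at -0.63 and -0.79.

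Sequencing depth ranged over 5315435 to 30941726 assigned counts for KO libraries, over 7633446 to 18256010 for WT libraries, and every member had at least 93 counts in every library. Spi1 and Tnfrsf11a, the targeted gene and the Cre locus, did not pass the threshold (log2 fold change 1.31 ± 0.69 SE, adjusted p = 0.337, and 0.26 ± 0.73 SE, adjusted p = 0.886, edgeR), and as the deletion was directed at another cell type they do not check the labels of stem cell libraries. All 8 LT-HSC markers examined (Slamf1, Procr, Kit, Hlf, Mecom, Ly6a, Fgd5 and Ptprc) were detected in every library. Their sums were 411 to 1332 CPM (counts scaled to 1000000 per library) in KO and 228 to 444 CPM in WT, 2 of the 8 were called higher in KO and their median log2 fold change was 1.27. Macrophage markers summed to 213 to 952 CPM in KO and 96.1 to 660 in WT, so the sums overlapped, and 9 of the 13 were detected in every library. The log2 fold change was below 0 for 10 of the 13 (median -1.15, highest 0.59), and 1 was called lower. Marco and Clec4f were at 0 in all KO libraries. The 10 erythroblast markers in the table summed to 2607 to 92929 CPM in KO and 2399 to 178173 in WT, with WT replicate 3 and KO replicate 6 highest. All 10 had a log2 fold change below 0 (median -1.37) and 1 was called lower. Sums in KO and WT were 1107 to 8235 and 246 to 4915 CPM for endothelial markers. For hepatoblast markers they were 108 to 8896 and 252 to 4611. For megakaryocyte markers they were 165 to 3218 and 172 to 1054, and for granulocyte markers 13.0 to 1297 and 5.64 to 1562. Below 0 were 2 of 8 endothelial and 3 of 8 granulocyte markers but no hepatoblast or megakaryocyte marker, and none was called. WT replicate 1 had the lowest erythroblast, macrophage, endothelial and granulocyte sums of all libraries. The part of these markers in the members' lower level was not tested. Xist, the RNA of the inactive X chromosome, was high in all 4 WT libraries and KO replicates 2 and 3 (log2 CPM 6.30 to 8.75) and low in the other 4 KO libraries (0.54 to 1.45). Embryo sex therefore differed in its balance between the groups, and low Xist occurred in KO only.

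Summed over the 79 genes, the WT libraries held 12464, 7702, 7790 and 10298 CPM after normalization by the trimmed mean of M-values (TMM), a scaling that sets most genes as equal between libraries. The KO libraries ran from 5024 through a median of 5689 to 6831 CPM. All 6 KO libraries were below all 4 WT libraries, and the means were 5771 ± 609 CPM (KO, SD) and 9564 ± 2278 CPM (WT, SD), a ratio of 0.603. WT replicate 1 had the highest value for 59 of the 79 members and WT replicate 4 for 18, and the spread was wider in WT than in KO. For single genes, all KO libraries were below all WT libraries for 39 members, against 3.48% of all genes, and 24 of these 39 were among the 29 called. Whether a smaller share of cells with this RNA or less of it per cell lay behind a lower level in such bulk libraries cannot be told apart.

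How far the libraries separated depended on the scale. On TPM, values that divide each estimate by transcript length and set every library to the same total, the sums were 12652, 9076, 5734 and 11011 in WT and 6153 to 9661 in KO, and the libraries overlapped. In TPM no member had all KO libraries below all WT libraries, against 0.145% of all genes, and the mean was lower in KO for 70 members with a ratio of the summed means of 0.789. WT replicate 3, the lowest of all 10 libraries on this scale, had 35.9% of its TPM in 4 globin genes, against 20.6% in KO replicate 6, 9.56% in KO replicate 5 and 0.212% to 4.39% in the others. With those 4 genes taken out of the total, the sums were 12679, 9493, 8948 and 11088 in WT and 6804 to 9739 in KO, 7 members had libraries that did not overlap (0.591% of all genes), 72 had a lower mean in KO, and the ratio was 0.763. Plain CPM without TMM gave 3 members that did not overlap (0.389% of all genes), 74 with a lower mean and a ratio of 0.715. On that scale the sums were 11587, 7783, 5771 and 9532 in WT and 5668 to 7031 in KO, and the libraries overlapped. The TMM factors ran from 0.741 to 1.01 in WT and from 0.977 to 1.19 in KO.

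**Figure D1:**
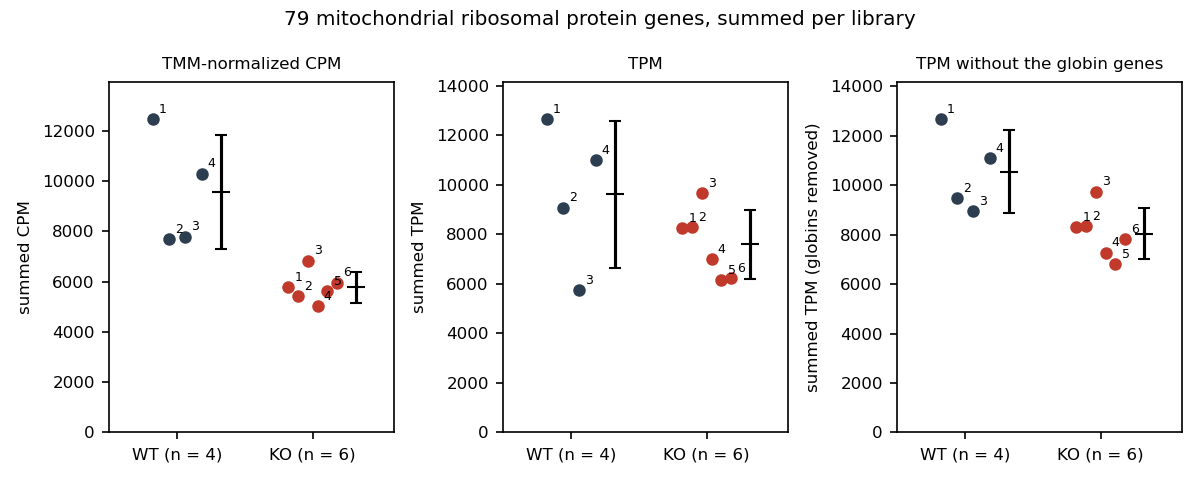
Level summed over the 79 mitochondrial ribosomal protein genes in each library (points, numbered by replicate) with the mean and SD of each group (bars), in TMM-normalized CPM, in TPM and in TPM after removal of 4 globin genes. The KO libraries sit between 5024 and 6831 on the first scale, below all WT libraries, whereas on the TPM scale WT replicate 3 falls to 5734, under every KO library.

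The fall was spread over both subunits. Of the large subunit genes, 18 of 51 were called lower (35.3%) with a median log2 fold change of -0.71, and of the small subunit genes 10 of 26 (38.5%) with a median of -0.76. The ratio of summed CPM of large over small subunit genes averaged 2.23 ± 0.03 for KO and 2.21 ± 0.13 for WT (SD), and it lay between 2.05 and 2.36 in all 10 libraries. Genes of proteins with a bacterial counterpart numbered 48, with 20 called lower and a median of -0.75. Those of mitochondria-specific proteins numbered 29, with 8 called lower and a median of -0.71.

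**Figure D2:**
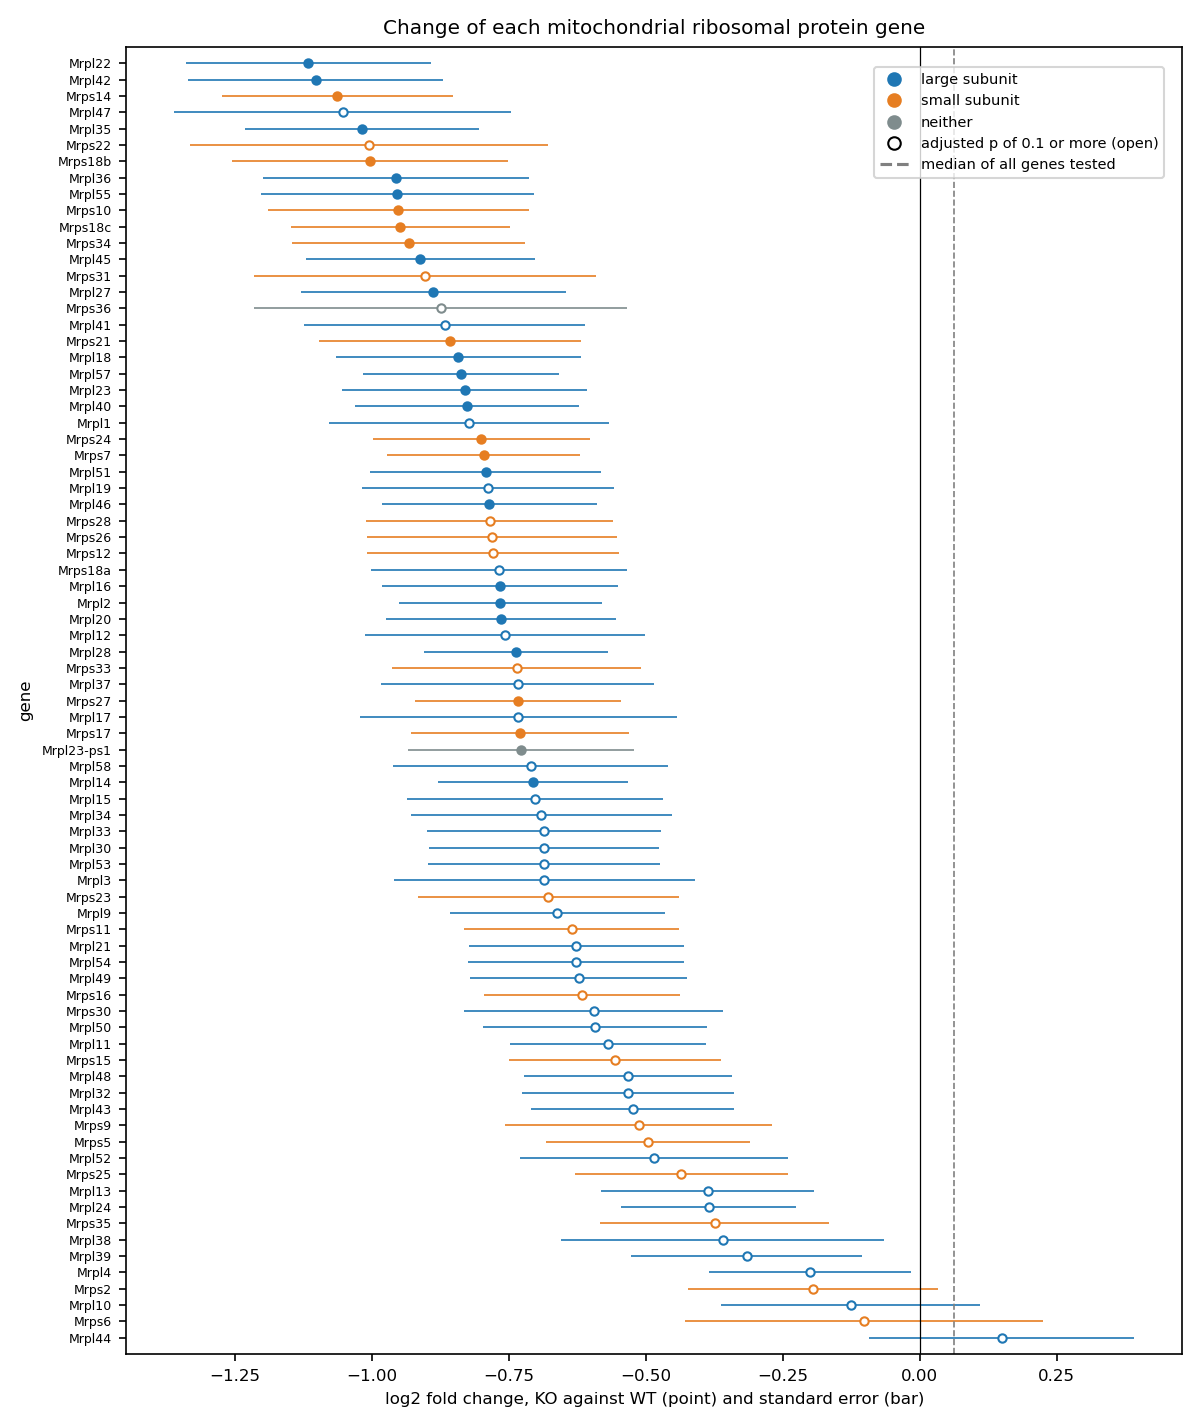
Log2 fold change, KO (n = 6) against WT (n = 4), of each of the 79 genes (points) with its standard error (bars), coloured by subunit and filled where the adjusted p was below 0.1. All but Mrpl44 lie left of 0, and the 29 filled points lie between -1.12 and -0.71, while the median of all genes tested (dashed line) is 0.06.

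Among large subunit genes with the smallest p, Mrpl22 encodes a protein that lines the tunnel through which the nascent chain leaves the ribosome. It measured 208, 112, 88.9 and 151 CPM in WT, and 57.1, 65.6 and 73.3 CPM as the lowest, median and highest KO library. Its log2 fold change of -1.12 ± 0.22 (SE; adjusted p = 0.0824, edgeR with Benjamini-Hochberg adjustment) was the farthest below 0 of all members, and WT replicate 1 stood well above the other WT libraries. Mrpl42, a mitochondria-specific protein, measured 573, 318, 245 and 448 CPM in WT and 145, 179 and 237 CPM as the lowest, median and highest KO library. Its highest KO library, replicate 3, reached nearly to the lowest WT library, and the log2 fold change was -1.10 ± 0.23 (SE). Mrpl35, a counterpart of bacterial bL35, measured 232, 123, 114 and 156 CPM in WT and 66.5, 76.4 and 91.4 CPM as the lowest, median and highest KO library, a log2 fold change of -1.02 ± 0.21 (SE). The WT libraries were again led by replicate 1.

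Mrpl57 and Mrpl28 showed smaller differences, with a smaller SE. Mrpl57, another protein without a bacterial counterpart, measured 146, 85.8, 100 and 96.5 CPM in WT. Its 6 KO libraries were the closest together of the genes shown in full, from 55.4 through a median of 60.6 to 63.0 CPM, and the log2 fold change was -0.84 ± 0.18 (SE). Mrpl28, a counterpart of bacterial bL28, measured 334, 209, 270 and 253 CPM in WT and 142, 154 and 185 CPM as the lowest, median and highest KO library. The gap between the groups was narrow beside the spread within WT, and the log2 fold change was -0.74 ± 0.17 (SE).

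On the small subunit, Mrps14 belongs to the head of the subunit. It measured 231, 162, 172 and 303 CPM in WT and 80.8, 104 and 131 CPM as the lowest, median and highest KO library, a log2 fold change of -1.06 ± 0.21 (SE). Here replicate 4, not replicate 1, was the highest WT library. Mrps7, also a protein of the head that binds the ribosomal RNA, measured 240, 137, 180 and 206 CPM in WT and 96.8, 109 and 121 CPM as the lowest, median and highest KO library. The log2 fold change was -0.80 ± 0.18 (SE), with WT replicate 2 not far above the highest KO library. The 8 genes given here and in the next paragraph with every WT library were taken for their p and for groups that did not overlap, so their lack of overlap is part of that choice.

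Mammals have 3 genes related to bacterial ribosomal protein S18, and their products sit at different sites. Mrps18c, the one placed at the S18 site of the small subunit, measured 151, 102, 112 and 184 CPM in WT and 61.8, 68.8 and 89.9 CPM as the lowest, median and highest KO library. Its log2 fold change was -0.95 ± 0.20 (SE), and 23.2% of its exonic bases overlap an unconfirmed gene model on the same strand, Gm43511. Mrps18b, also of the small subunit, was called lower as well, at 369, 156, 169 and 188 CPM in WT and 79.1 to 133 CPM in KO (-1.003 ± 0.25 SE, adjusted p = 0.0836, edgeR). Of its exonic bases 30.5% overlap the antisense gene Gm16279, whose reads cannot be told apart without strand, and without WT replicate 1 its value was -0.64 (adjusted p = 0.178). Mrps18a, which sits in the large subunit despite its name, had all KO libraries (45.5 to 84.3 CPM) below all WT libraries (94.6 to 169 CPM) with a log2 fold change of -0.77 ± 0.23 (SE), and its adjusted p of 0.116 missed the threshold. All 3 relatives had a log2 fold change below 0 under every alternative processing tried.

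**Figure D3:**
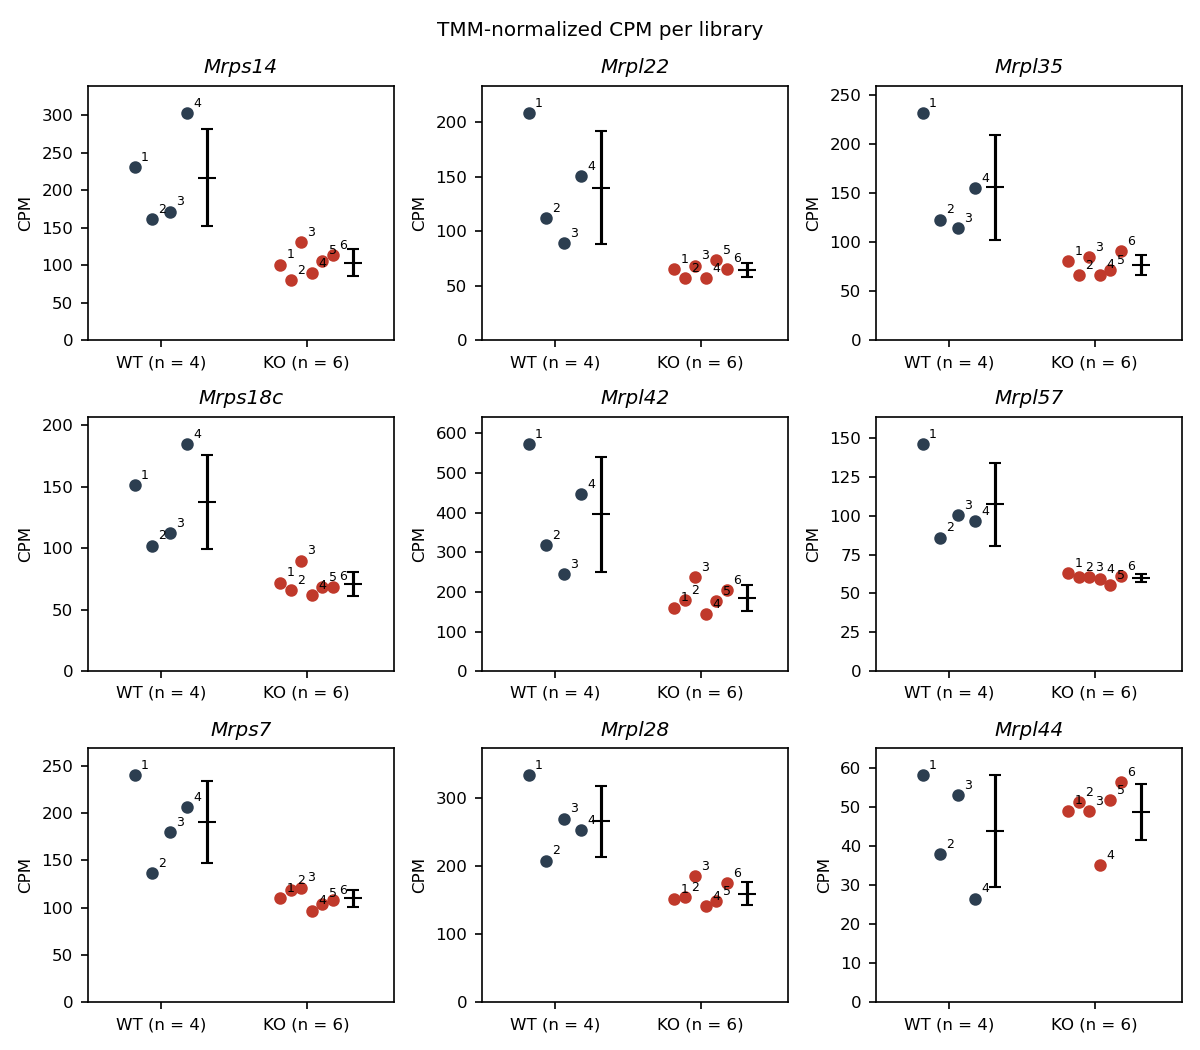
TMM-normalized CPM of 9 genes in each library (points, numbered by replicate) with the mean and SD of each group (bars). For the 8 genes with the smallest p every KO library is below every WT library, by choice of these genes, and for Mrpl44 the groups overlap, with KO from 35.2 to 56.4 CPM and WT from 26.6 to 58.2 CPM.

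Of genes of other functional sites, Mrps12, Mrpl58 and Mrpl12 lay in the same range without passing the threshold, and Mrpl10 lay near 0. Mrps12, a protein of the decoding centre, had a log2 fold change of -0.78 ± 0.23 (SE, adjusted p = 0.109, edgeR), at 51.9 to 84.6 CPM in KO and 81.4 to 154 CPM in WT. Mrpl58, a peptidyl-tRNA hydrolase built into the large subunit that frees stalled chains, had -0.71 ± 0.25 (SE, adjusted p = 0.159), and KO replicate 3, at 135 CPM, reached the WT range of 107 to 169 CPM. The stalk is where translation factors bind. Mrpl12, the stalk protein itself, measured 478, 202, 237 and 189 CPM in WT and 120 to 188 CPM in KO, with a log2 fold change of -0.76 ± 0.26 (SE, adjusted p = 0.147), and of -0.36 (adjusted p = 0.349) without WT replicate 1. Mrpl10, which anchors it, had -0.13 ± 0.24 (SE, adjusted p = 0.821), and its sign changed with length correction, in TPM, without WT replicate 1 and in the libraries with high Xist.

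The members nearest to no change formed a small group. Log2 fold changes within 0.25 of 0 were found for 5 of the 79, namely Mrpl44, Mrps6, Mrpl10, Mrps2 and Mrpl4. Mrpl44, which carries an RNase III-like fold, measured 58.2, 38.0, 53.0 and 26.6 CPM in WT and 35.2, 50.2 and 56.4 CPM as the lowest, median and highest KO library, for 0.15 ± 0.24 (SE, adjusted p = 0.793, edgeR). Without WT replicate 4 its value was -0.027. Mrps6, a platform protein of the small subunit, measured 49.1, 63.5, 36.5 and 91.7 CPM in WT and 30.2 to 87.9 CPM in KO, for -0.10 ± 0.33 (SE, adjusted p = 0.900), and the groups overlapped over nearly their whole ranges. Mrps2, of the small subunit, stood at -0.20 ± 0.23 (SE) and Mrpl4, of the exit tunnel, at -0.20 ± 0.18 (SE), with adjusted p of 0.698 and 0.606.

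The levels of different genes were set side by side here in TPM. The members had a median of 87.7 TPM over all libraries, below the nuclear genes of complex I of the respiratory chain (283 TPM) and of cytosolic ribosomal proteins (995 TPM). The 5 highest were Mrpl42 at 416, Mrpl17 at 395, Mrps21 at 255, Mrpl33 at 254 and Mrpl23-ps1 at 248 TPM. Of these, Mrpl42, Mrps21 and Mrpl23-ps1 were called lower (log2 fold changes -1.10, -0.86 and -0.73), and Mrpl17 and Mrpl33 were not, at -0.73 ± 0.29 and -0.69 ± 0.21 (SE), or -0.36 and -0.44 without WT replicate 4. The pseudogene copy Mrpl23-ps1 and its parent Mrpl23 share nearly identical sequence, so the division of reads between them is uncertain. Summed, the pair measured 135 ± 13.6 CPM across the KO libraries and 227 ± 65.1 CPM across the WT libraries (mean ± SD), with the highest KO library at 161 and the lowest WT library at 164 CPM.

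The 5 members with the lowest TPM were Mrpl1 at 10.3, Mrps31 at 14.53, Mrps30 at 18.6, Mrpl11 at 21.0 and Mrps2 at 24.7 TPM. None of them was called, at log2 fold changes of -0.82, -0.90, -0.59, -0.57 and -0.20, and each had overlapping libraries. Mrps30, a large subunit protein despite its name, measured 120, 78.5, 79.8 and 47.8 CPM in WT and 44.6 to 64.6 CPM in KO, so WT replicate 4 lay among the KO libraries, and its log2 fold change was -0.35 without WT replicate 1. Mrps36, outside the ribosome, had -0.87 ± 0.34 (SE, adjusted p = 0.195, edgeR), with WT replicates 2 and 4 at 31.2 and 30.0 CPM inside the KO range of 19.5 to 37.8 CPM. Without WT replicate 1 its value was -0.36 (adjusted p = 0.540). Leaving out Mrps36 and the pseudogene left 28 members called lower.

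The members are short genes, and changes in this comparison varied with length. Their mean transcript length, averaged over the transcripts of a gene in the deposited tables, had a median of 1112 bases against 1856 for all genes tested. Over 16576 genes the log2 fold change had a Spearman correlation of 0.221 with this length, given as a description across genes of the same 10 libraries. In single libraries the correlation of length with expression, centred on the mean of the libraries, ran from 0.067 to 0.145 for KO and from -0.152 to -0.078 for WT, so every KO library stood on one side and every WT library on the other. What lay behind this was not tested.

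Set beside genes of like length, the members were still lower. Other genes within the members' interquartile length range, 730 to 1635 bases, numbered 5891, with a median log2 fold change of -0.13, 57.6% below 0 and 4.14% called lower. Those of them with a mean CPM within the members' range of 23.4 to 269 numbered 2695, with a median of -0.23, 69.2% below 0 and 6.86% called lower. In 20 bands of equal gene number by length, 76 of the 79 members lay below the median of the other genes in their band, and the median difference was -0.54 on the log2 scale. Weighted by where the members lay, the bands had a median of -0.12 and 4.57% called lower. With 10 bands the number below was 77, and with lengths weighted by estimated counts it was also 77.

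**Figure D4:**
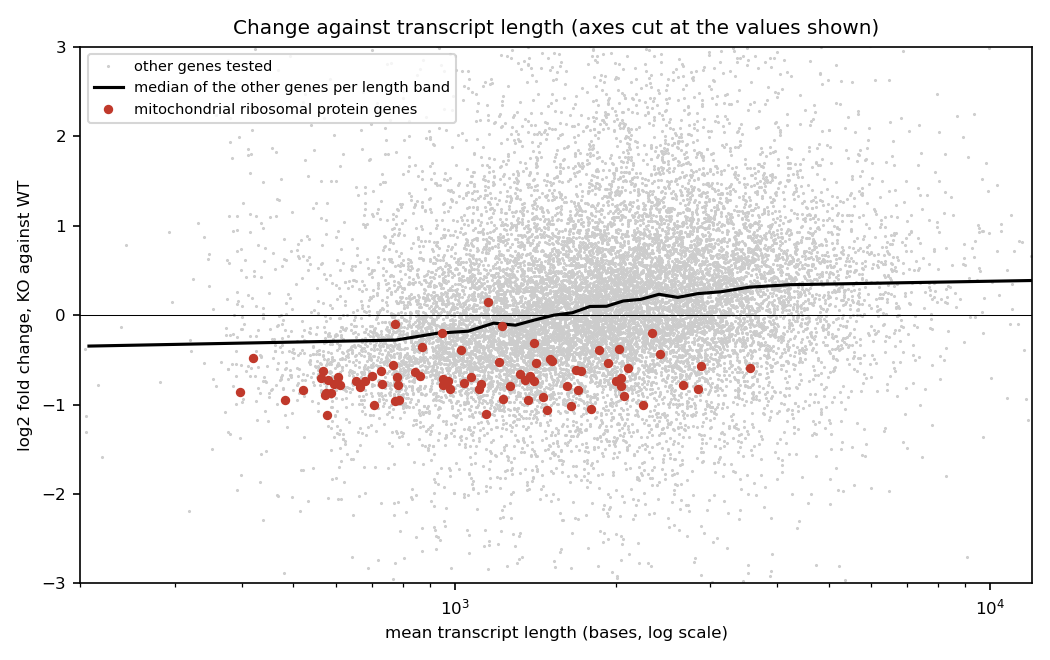
Log2 fold change, KO against WT, against mean transcript length (log scale) for the 79 members (red), the other genes tested (grey) and the median of the other genes in each of 20 length bands (line). The line rises from -0.35 in the shortest band to 0.41 in the longest, and 76 of the 79 red points lie below it.

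In the 10 bands of the shorter genes, up to 1856 bases, 29 of 64 members and 4.04% of the other genes were called lower. In the 10 bands of the longer genes edgeR called 0 of 15 members, beside 0.991% of the other genes, although all 15 had a log2 fold change below 0, 12 had an unadjusted p below 0.05 and their median was -0.59. Relative to their bands, the median difference was -0.86 for the 15 longer members and -0.51 for the 64 shorter ones. Among the 5 farthest below their band were Mrps22 (-1.18 from the band median), Mrpl47 (-1.15), Mrpl1 (-1.06) and Mrps31 (-1.06), with mean lengths of 1797 to 2846 bases, and Mrps14 (-1.06). Mrps22, a mitochondria-specific protein of the small subunit, measured 103, 40.5, 53.3 and 23.9 CPM in WT and 22.2 to 31.8 CPM in KO. Its log2 fold change of -1.005 ± 0.33 (SE, adjusted p = 0.134, edgeR) moved to -0.52 (adjusted p = 0.358) without WT replicate 1, and WT replicate 4 was within the KO range. Mrpl47, at the exit of the tunnel, measured 127, 53.0, 42.7 and 57.9 CPM in WT and 22.8 to 44.6 CPM in KO, with -1.05 ± 0.31 (SE, adjusted p = 0.107), and -0.60 (adjusted p = 0.271) without WT replicate 1. The 5 farthest above their band were Mrpl44 (0.24), Mrps6 (0.18), Mrpl4 (0.00), Mrpl10 (-0.04) and Mrpl52 (-0.14), of which only the first 3 were at or above the band median.

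When expression was corrected for length within each library by a loess curve, the call was lost. The edgeR test then called 0 members and 0 genes of the whole table, 48 members had an unadjusted p below 0.05 and a lower level, 75 were below 0, and the median was -0.52 against 0.06 for all genes. The correlation of log2 fold change with length over all genes was 0.016 after this correction. The members' median lay -0.80 from that of all genes in the uncorrected test, -0.58 with the length correction and -0.54 in limma on log2(TPM + 1), a scale that moved the median of all genes to 0.27. In limma on TPM the whole table had 476 genes called higher and 12 called lower (0.0724%), 0 members were called, 68 had a log2 fold change below 0 and 1 had an unadjusted p below 0.05.

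The calls also changed with single libraries and with Xist. Without WT replicate 1 edgeR called 0 members and 0 other genes, 55 members had an unadjusted p below 0.05 with a lower level in KO, and the median was -0.53. The log2 fold change of 19 members, 4 of them among the 29, shrank by over 1.5 times or changed sign without that library. The count was also 0 without KO replicate 1, 2, 4, 5 or 6, with 64 to 66 members at an unadjusted p below 0.05, and 21 to 42 when WT replicate 2, 3 or 4 or KO replicate 3 was left out. With log2 CPM of Xist added to the model 0 members were called, 77 had a log2 fold change below 0, 56 had an unadjusted p below 0.05 and the median was -0.70. Within the 6 libraries with high Xist (2 KO, 4 WT) 0 were called, 76 were below 0, 11 had an unadjusted p below 0.05 and the median was -0.67. The KO libraries with low Xist have no WT counterpart, so genotype and sex cannot be told apart for them.

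Other families of short, abundant genes were set beside the members. Of 89 cytosolic ribosomal protein genes 4 were called lower (4.49%), with a median log2 fold change of -0.41 and a median difference from their length bands of -0.15. Of 37 nuclear genes of complex I, whose partner subunits the mitochondrial ribosome makes, 14 were called lower (37.8%), with a median of -0.64 and a median difference from the bands of -0.38. The members stood at -0.54 on that last measure. No test of the difference between the families was made.

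Other genes of mitochondrial translation were taken from 6 lists. The 5 proteins of the mitochondrial ribosome with other names all had a log2 fold change below 0, and 3 were called lower by edgeR. These were Gadd45gip1 (-0.85 ± 0.20 SE), Chchd1 (-0.87 ± 0.21 SE) and Aurkaip1 (-0.79 ± 0.21 SE), while Dap3 and Ptcd3 were not called. Of 25 assembly factors, which build the subunits on their RNAs, 22 were below 0 and 1 was called, Mpv17l2 (-1.24 ± 0.32 SE, adjusted p = 0.0877), with a median of -0.39. Of 16 translation and mRNA-handling factors all were below 0 and 1 was called, the RNA-binding protein Slirp (-0.85 ± 0.24 SE, adjusted p = 0.0953), with a median of -0.34. These 5 calls were lost under the same conditions as those of the members, with length correction, in TPM, with Xist and without WT replicate 1.

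The lists farther from the ribosome held no calls. Of 17 mitochondrial aminoacyl-tRNA synthetases, which charge the transfer RNAs, 11 were below 0 with a median of -0.22, and Yars2 was lowest at -1.42 ± 0.47 (SE, adjusted p = 0.139, edgeR). Of 14 genes of mitochondrial transcription and genome upkeep the median was -0.41, with Ssbp1 at -0.76 ± 0.23 (SE, adjusted p = 0.117) and Tfam, which packages mitochondrial DNA, at -0.48 ± 0.21 (SE, adjusted p = 0.248). The 13 mitochondrially encoded protein genes, the templates of this ribosome, had 7 below 0 and a median of -0.07. The ribosomal RNA genes mt-Rnr1 and mt-Rnr2, read from the transcript tables, had overlapping libraries, at 257 to 671 against 339 to 789 and at 1964 to 5328 against 2049 to 4277 CPM of the summed gene counts (KO against WT; two-sided exact permutation tests, p = 0.610 and 0.476). Library construction copied polyadenylated RNA, so these values are a partial sample of the ribosomal RNA.

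**Figure D5:**
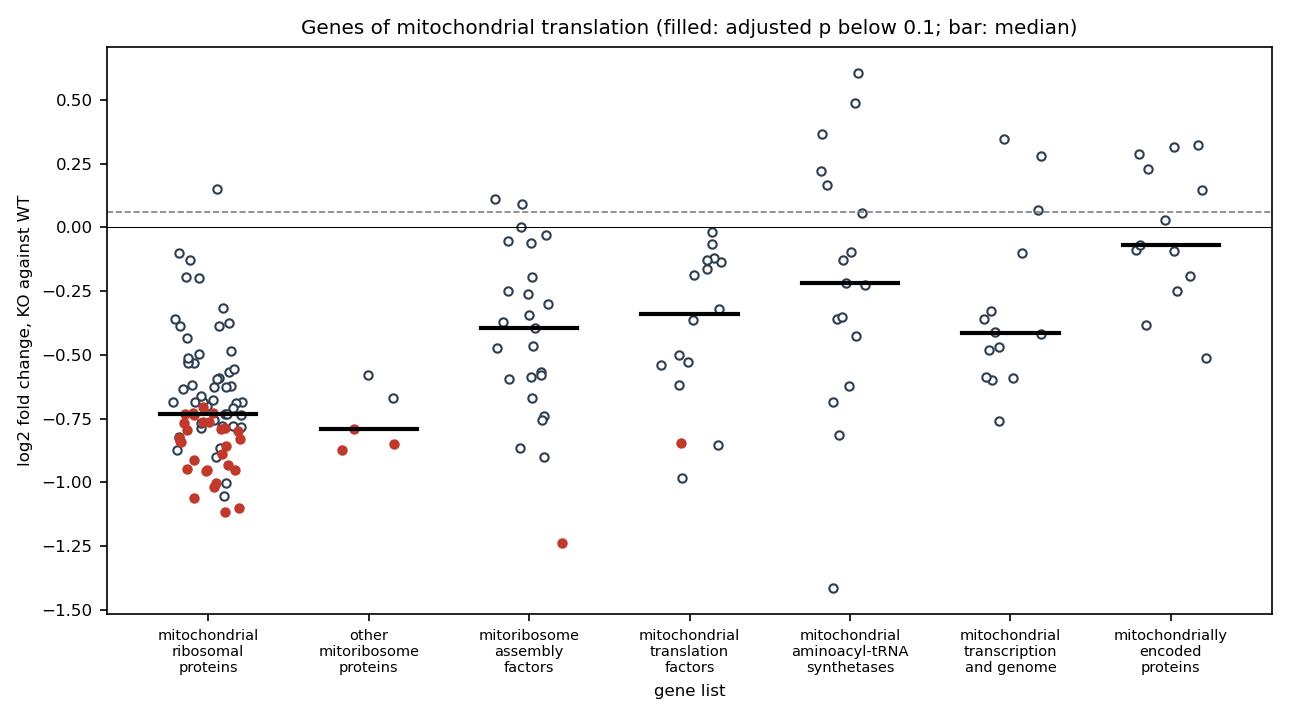
Log2 fold change, KO against WT, of the 79 members and of 6 lists of genes of mitochondrial translation (points, filled where the adjusted p was below 0.1), with the median of each list (bar) and of all genes tested (dashed line, 0.06). The medians run from -0.73 for the members and -0.79 for the 5 other ribosome proteins to -0.07 for the mitochondrially encoded proteins.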

How the data were processed

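RNA of sorted LT-HSCs was amplified by SmartSeq2, which copies polyadenylated RNA along its full length without molecular identifiers, and sequenced as single-end reads, with bcl2fastq 2.20 and kallisto 0.44.0 named in the submitters' processing notes (GRCm38). The authors deposited, per library, a table of 133944 transcripts with their length in bases, estimated counts, not normalized, and TPM as kallisto gives them. The authors also deposited a table of whole-number counts for 17404 gene symbols, which differed from the sums of estimated counts over each member's transcripts by at most 1.01. All 79 members were found in both.

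Genotype was tested alone for genes whose counts totalled at least 11, with edgeR 4.0.16 (TMM, robust glmQLFit, glmQLFTest) in R 4.3.3, at a Benjamini-Hochberg adjusted p below 0.1. The SE given with edgeR values was derived from the test, as the absolute log2 fold change divided by the square root of its F statistic. DESeq2 1.42.0 (log2 fold-change threshold 0.1) and limma 3.58.1 on log2(TPM + 1) were alternatives, beside other size factors, filters, length offsets (loess span 0.3), Xist, and each library left out. SciPy 1.17.1 and pandas 2.3.3 served for the rest. Fits were tested on simulated counts with the same dispersion for all genes and no length trend, sex difference or deviating library. That run checks the code and does not bear on the calls of these data. Depth ran from 5315435 to 30941726 counts, so members were limited by the spread between libraries more than by counting. Annotation came from Gencode vM21, on the same build as the study's vM16, and promoters from RefSeq. Members and lists were chosen with earlier results of these data known. Members were named for p (8 smallest among those called with groups that did not overlap), largest fold (3 in each direction), TPM and distance from the length band (5 at each end), and for known roles. From other lists up to 3 with the smallest p were named, and other genes only as neighbours or overlaps, chosen after their values were seen. Of the stem cell markers set at the start, 1 is not reported here.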

Additional observations from a re-analysis of the deposited data

Results flagged for a closer look

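Among 62 groups of libraries examined for a library far from the rest of its group, 8 held one, where chance gives about 1 in 20 for independent groups. These groups are genes measured in the same libraries and are not independent, so the 8 cannot be set against that rate. KO replicate 3 was high for Mrpl17 at 328 CPM, where the other KO libraries had 155 to 186 CPM, for Mrpl58 at 135 CPM (others 56.7 to 84.1 CPM) and for Mrps18c at 89.9 CPM (others 61.8 to 72.1 CPM). WT replicate 1 was high for Mrpl12 at 478 CPM (others 189 to 237 CPM), for Mrps18a at 169 CPM (others 94.6 to 96.0 CPM) and for Mrps18b at 369 CPM (others 156 to 188 CPM). WT replicate 4 was high for Mrpl17 at 543 CPM (others 221 to 273 CPM). KO replicate 4 was low for Mrpl44 at 35.2 CPM (others 49.0 to 56.4 CPM). In 7 of these 8 the library was above its group, and 3 of the 7 concerned KO. Leaving out KO replicate 3 raised the number of members called lower to 42, and leaving out WT replicate 1 took it to 0.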

How the results depend on the processing

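The 29 members called lower became 63 with DESeq2 without a fold-change threshold, where 7.85% of all genes were lower, and 45 with filterByExpr, which tested fewer genes and called 4.73% lower, against 2.67% before. The number was 0 with the loess length correction, with limma on log2(TPM + 1), with Xist as a covariate, in the libraries with high Xist (chosen after seeing the data) and at an adjusted p below 0.05. It ran from 0 to 42 with 1 library left out. The median log2 fold change was -0.27 in limma on TPM and otherwise -0.83 to -0.52. The 5 genes of the related lists became 17 with DESeq2 without a threshold, 3 with offsets for average transcript length and 0 with the loess correction, in TPM, with Xist, with high Xist only and at 0.05, and ran from 0 to 6 with 1 library left out. The number of members higher stayed at 0 throughout, and 72 to 77 lay below their band. In TPM 0 of the 8 members with the smallest p had groups that did not overlap. The sign turned for Mrpl10 (0.023 with loess, 0.36 in TPM, 0.044 with high Xist only, -0.33 to 0.0069 with 1 library left out), Mrpl4 (0.056 with loess, 0.24 in TPM), Mrps2 (0.21 in TPM), Mrpl44 (-0.027 without WT replicate 4, and up to 0.31 with another library left out) and Mrps6 (0.24 with loess, 0.33 in TPM, 0.13 with Xist, 0.20 with high Xist only, 0.024 without KO replicate 6, and -0.28 to 0.17 over all libraries left out). The cause of these changes was not tested. No paired analysis was possible because the labels give embryos of KO and WT neither a shared number nor a litter, and the replicate numbers used here only follow the order of the samples. With 6 and 4 libraries, calls at this threshold depended on the whole table, as in every setting with 0 members called by edgeR the table held at most 1 called gene.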
